A study of Mus musculus with 12 samples.

Results

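The 10 nuclear genes studied encode chaperones and proteases of mitochondria and were followed in isolated muscle fibers: *Hspd1*, *Hspe1*, *Hspa9*, *Trap1*, *Lonp1*, *Clpp*, *Clpx*, *Afg3l2*, *Spg7* and *Htra2*. They are named by symbol, and all 10 of the 10 were listed once in every sample among 55367 distinct symbols. The samples came from extensor digitorum longus muscles of male C57BL/6J mice and formed 3 groups of 4. The Young group held fibers of 3 to 4 months of age, and 2 groups held fibers of 26 to 28 months of age. The aged fibers were separated under a fluorescence stereomicroscope after loading with the calcium dye Fluo-4 into the Fluo-4 normal fibers and the Fluo-4 abnormal fibers, which stained apparently more strongly. No gene was manipulated in these samples. The number of fibers and mice behind a sample was not given in the sources used here, so the spread between samples may be partly technical.

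Most mitochondrial proteins are made in the cytosol and enter the organelle unfolded. In the matrix, Hspa9 (mortalin, the mitochondrial Hsp70) pulls them in and folds them, and Hspd1 (Hsp60) with its lid Hspe1 (Hsp10) forms a closed chamber for folding. Damaged or unassembled proteins are degraded by Lonp1 and ClpXP in the matrix, by the m-AAA protease (Afg3l2 and Spg7) in the inner membrane and by Htra2 in the intermembrane space. Several of these genes are textbook targets of the mitochondrial unfolded protein response.

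*Hspd1* and *Hspe1* are neighbours that are read in opposite directions from one shared stretch of DNA, and the stretch is shown because only one of these partners passed the test below. In the RefSeq mouse promoters (assembly GRCm38.p6) the 215 bases between the *Hspe1* start and the *Hspd1* start before it are chr1:55087933-55088147. They are given on the + strand, which is the coding strand of *Hspe1*, with matches to the heat shock element in capitals.
Hspd1-Hspe1 shared promoter: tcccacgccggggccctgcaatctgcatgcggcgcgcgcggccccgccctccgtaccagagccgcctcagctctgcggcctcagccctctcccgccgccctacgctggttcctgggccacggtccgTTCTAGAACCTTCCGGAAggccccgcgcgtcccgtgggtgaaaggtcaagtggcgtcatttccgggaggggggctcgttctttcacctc
The capitals hold 3 overlapping matches to GAANNTTC or TTCNNGAA, the letters searched for the element bound by heat shock factors, and the matches end 81, 76 and 71 bases before the *Hspe1* start. The element was found on either strand in 12.8% of all 32851 promoters when the 250 bases before the start were searched. Promoter entries were matched for 7 of the 10 genes, and in those of *Spg7*, *Clpx*, *Trap1*, *Lonp1* and *Clpp* these letters were not found. *Hspd1* had a further entry, with a start beyond that of *Hspe1*, and these letters were not found in it either. TGATGNAA, the letters used for the element of ATF4 with C/EBP factors, was found in 3.45% of all promoters and in none of the 8 windows of these genes. GCATGCGC (NRF1) was found in 2.26% of all promoters and in that of *Clpx*, and TGACCTTG (a site of the estrogen-related receptors) in 1.33% and in that of *Trap1*. CCAAT was found in 33.8% of all promoters and in that of *Clpx*. A match describes the letters of a window and does not show binding.

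Expression was given as transcripts per 1000000 (TPM), which is scaled for transcript length and sums to 1000000 in each sample. Between 16841 and 17936 genes were above 0 in a sample, and read depth was not given in the sources used here. Markers of skeletal muscle fibers summed to between 95360 and 133600 TPM in a sample, and all 4 adipocyte markers were at 0 in all 12 samples. The 6 immune markers summed to between 1.80 and 3.02 TPM in Young, 5.68 and 15.5 in the Fluo-4 normal and 9.32 and 16.2 in the Fluo-4 abnormal fibers, and the 5 erythroid markers to between 33.1 and 121, 119 and 482, and 44.4 and 236. The share of myosin heavy chain TPM from *Myh4*, the fast 2B isoform, was 96.9 to 98.6% in Young, 93.7 to 99.2% in the Fluo-4 normal and 98.9 to 99.7% in the Fluo-4 abnormal fibers. Mitochondrially-encoded genes held 7.35 to 8.01%, 8.75 to 10.9% and 4.75 to 6.92% of TPM in the same order. The part of these values in the results below was not tested except where a fit with the *Myh4* share, or with mitochondrially-encoded genes taken out of the total, is given.

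All 10 genes were expressed in every sample, at levels that differed widely between genes. Over the 12 samples *Hspe1* had the highest mean (191 TPM), followed by *Hspa9* (161 TPM), *Hspd1* (85.2 TPM), *Trap1* (66.5 TPM), *Clpp* (52.0 TPM), *Spg7* (50.9 TPM), *Clpx* (45.0 TPM), *Afg3l2* (32.1 TPM), *Lonp1* (21.7 to 32.1 TPM over the samples) and *Htra2* (9.52 TPM). In this order only *Hspd1* lay below *Hspa9*, and *Htra2* below *Lonp1*, without overlap of the sample values; each of the other neighbours overlapped. The 4 folding chaperones thus headed the order and the proteases followed. The summed level of the 10 genes was 732 ± 24.4 TPM (SD, n = 4) in Young, 744 ± 38.3 TPM in the Fluo-4 normal and 688 ± 36.6 TPM in the Fluo-4 abnormal fibers, and the sample values overlapped (Fluo-4 abnormal 646 to 726, Fluo-4 normal 696 to 787). The plot of TPM by sample shows all values.

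**Figure D1:**
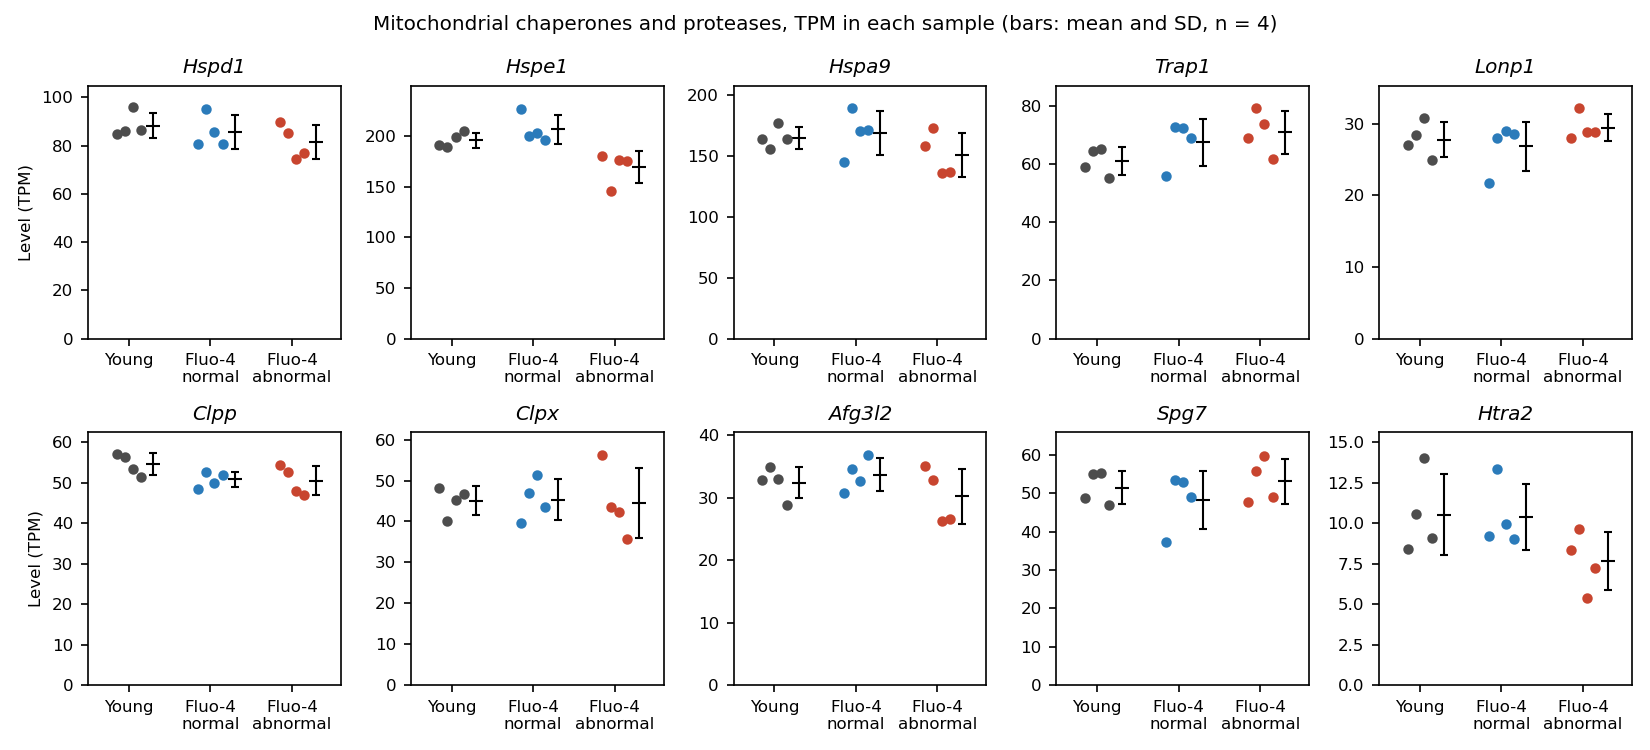
TPM (linear axis from 0) of each of the 10 genes in the 4 Young, 4 Fluo-4 normal and 4 Fluo-4 abnormal samples. Points are samples in the order of their replicate numbers and the black bars are the mean and SD. For *Hspe1* the 4 Fluo-4 abnormal samples, 146 to 180 TPM, lie below the 8 others, which begin at 189 TPM; for the other 9 genes the 3 groups overlap.

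The aged Fluo-4 abnormal and Fluo-4 normal fibers were compared to see how the abnormal fibers differ from other fibers of the same age. Of the 10 genes only *Hspe1* passed the test (limma on log2(TPM + 1), Benjamini-Hochberg adjusted p under 0.05), and it was lower in the Fluo-4 abnormal fibers. That is 1 of 10 genes, where 9.35% of all 14428 genes tested passed, 7.36% as higher and 1.99% as lower, so the share of called members was near that of all genes. Of the 4468 tested genes with a mean of at least 10 TPM, 20.9% passed, 4.79% as lower. The groups did not overlap for 1 of the 10 genes, *Hspe1*, where 14.0% of all genes did not overlap. The log2 changes ran from -0.40 (*Htra2*) to 0.14 (*Spg7*). An unadjusted p under 0.05 was reached by 2 of the 10, *Hspe1* and *Htra2*, where 25.6% of all genes did.

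*Hspe1*, the lid of the folding chamber, had 180, 146, 176 and 176 TPM in the Fluo-4 abnormal fibers. It had 227, 200, 203 and 196 TPM in the Fluo-4 normal fibers and 191, 189, 199 and 205 TPM in Young. All 4 Fluo-4 abnormal samples lay below all 8 others, by a mean difference of 18.0% from Fluo-4 normal and 13.5% from Young. The log2 change against Fluo-4 normal was -0.29 (SE 0.07, 95% interval -0.45 to -0.13, adjusted p = 0.030, limma). The call was lost with the *Myh4* share as a covariate (log2 change -0.38, adjusted p = 0.053, limma) and without Fluo-4 normal replicate 1 (adjusted p = 0.073), Fluo-4 normal replicate 2 (0.052) or Fluo-4 abnormal replicate 2 (0.079). *Hspe1* also lost it with no filter, with only the 2 groups compared, and with the *Myh4* share joined to the replicate number as a block. Over its 22 alternatives the adjusted p from limma ran from 0.0083 to 0.31 and the log2 change from -0.51 to -0.22.

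*Hspd1*, which forms the wall of the chamber, had 89.7, 85.1, 74.6 and 77.0 TPM in the Fluo-4 abnormal fibers, 80.8, 95.4, 85.6 and 80.8 in the Fluo-4 normal and 84.8, 86.0, 95.9 and 86.7 in Young. The 3 groups overlapped, and its near-identical copy *Hspd1-ps3* (99.0% identity over 2235 bases) was at 2.50 to 4.03 TPM. The log2 change of the Fluo-4 abnormal against the Fluo-4 normal fibers was -0.07 (95% interval -0.24 to 0.10, adjusted p = 0.61, limma). The interval for *Hspd1* and that for *Hspe1* overlapped in part, so the difference between the partners was taken from their ratio within each sample. *Hspd1*/*Hspe1* was 0.498, 0.583, 0.424 and 0.438 in the Fluo-4 abnormal, 0.356, 0.476, 0.421 and 0.412 in the Fluo-4 normal and 0.443, 0.456, 0.482 and 0.423 in Young. The groups overlapped, and the ratio gave p = 0.14 for the Fluo-4 abnormal against the Fluo-4 normal fibers (exact two-sided permutation test, adjusted p = 0.32 over 27 ratio tests). The test did not pair samples by replicate number. By number, the ratio was higher in each Fluo-4 abnormal sample than in its Fluo-4 normal sample, narrowly in one (0.424 against 0.421). No paired test was run. In the GRCm39 annotation (GENCODE vM39) *Hspe1* (chr1:55127260-55130476) lies inside the annotated span of *Hspd1* (chr1:55116989-55171038) on the other strand and shares 143 exonic bases with it, which libraries without strand cannot assign.

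*Hspa9*, the import motor and matrix Hsp70, had 158, 173, 135 and 137 TPM in the Fluo-4 abnormal, 145, 189, 171 and 171 in the Fluo-4 normal and 163, 155, 177 and 163 in Young. The 2 lowest values were Fluo-4 abnormal samples, but the groups overlapped and the log2 change was -0.17 (95% interval -0.37 to 0.04, adjusted p = 0.29, limma). *Trap1*, the mitochondrial Hsp90, had 68.8, 79.2, 73.9 and 61.9 TPM in the Fluo-4 abnormal, 55.8, 72.7, 72.3 and 68.9 in the Fluo-4 normal and 59.1, 64.6, 65.2 and 55.3 in Young. Unlike for *Hspa9*, the mean was highest in the Fluo-4 abnormal fibers, with a log2 change of 0.07 (95% interval -0.14 to 0.29, adjusted p = 0.67, limma) and overlapping groups. *Hspa9* lies at chr18:35070465-35087750 and *Trap1* at chr16:3856215-3895716 (GRCm39). *Trap1* shares 1674 exonic bases with *Dnase1* on the other strand, and *Hspa9* shares 726 with *Gm56488* and 275 with *Gm56507*. Exonic bases were shared in the same way by *Afg3l2* (1012 with *Tubb6*), *Clpp* (285 with *Gm33509*), *Lonp1* (215 with *Rpl36*) and *Spg7* (197 with *Gm35677*).

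None of the matrix proteases passed the test between the aged groups, and their sample values overlapped. *Lonp1*, the Lon protease (chr17:56921291-56933980), had 27.9, 32.1, 28.8 and 28.9 TPM in the Fluo-4 abnormal, 21.7, 27.97, 29.0 and 28.5 in the Fluo-4 normal and 27.0, 28.4, 30.7 and 24.9 in Young. Fluo-4 normal replicate 1 stood apart at 21.7 TPM; the log2 change was 0.14 (95% interval -0.08 to 0.35, adjusted p = 0.43, limma). *Clpp*, the proteolytic barrel of ClpXP (chr17:57296971-57303369), was the least variable gene over the 12 samples, with a highest value 1.22 times its lowest. It had 46.9 to 54.5 TPM in the Fluo-4 abnormal, 48.5 to 52.7 in the Fluo-4 normal and 51.5 to 57.1 in Young, and a log2 change of -0.01 between the aged groups (95% interval -0.16 to 0.14, adjusted p = 0.95, limma). *Clpx*, the unfoldase that feeds the barrel (chr9:65201540-65239568), had 56.1, 43.6, 42.4 and 35.7 TPM in the Fluo-4 abnormal fibers, a range that contained all 8 values of the other samples (39.6 to 51.4). Its log2 change was -0.04 (95% interval -0.30 to 0.22, adjusted p = 0.87, limma).

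The 2 subunits of the m-AAA protease, which degrades and processes inner membrane proteins, had changes of opposite sign in TPM as deposited, both negative with the trimmed mean factors described below, that did not pass the test as deposited. *Afg3l2* (chr18:67535762-67582318) had 35.2, 32.8, 26.2 and 26.7 TPM in the Fluo-4 abnormal, 30.7, 34.6, 32.7 and 36.9 in the Fluo-4 normal and 32.8, 34.9, 33.1 and 28.9 in Young. Fluo-4 abnormal replicates 3 and 4 were below all other samples and replicates 1 and 2 were within them, with a log2 change of -0.16 (95% interval -0.39 to 0.06, adjusted p = 0.36, limma). *Spg7* (paraplegin, chr8:123789681-123825776) had 47.6, 55.9, 59.8 and 48.9 TPM in the Fluo-4 abnormal, 37.4, 53.5, 53.1 and 49.0 in the Fluo-4 normal and 48.7, 55.0, 55.3 and 47.0 in Young, with a log2 change of 0.14 (95% interval -0.11 to 0.39, adjusted p = 0.47, limma). The subunit ratio *Afg3l2*/*Spg7* was 0.577 ± 0.124 (SD, n = 4) in the Fluo-4 abnormal, 0.709 ± 0.0958 in the Fluo-4 normal and 0.631 ± 0.0328 in Young, and the aged groups overlapped (exact two-sided permutation p = 0.14, adjusted p = 0.32 over 27 tests). This test was unpaired. By replicate number, the ratio was lower in each Fluo-4 abnormal sample than in its Fluo-4 normal sample, which was not tested.

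*Htra2*, the serine protease of the intermembrane space, had the lowest level and the lowest log2 change of the list. It had 8.37, 9.62, 5.40 and 7.25 TPM in the Fluo-4 abnormal, 9.21, 13.4, 9.95 and 9.00 in the Fluo-4 normal and 8.42, 10.6, 14.0 and 9.09 in Young. Fluo-4 abnormal replicates 1, 3 and 4 were below all other samples and replicate 2 lay within them. The log2 change was -0.40 (SE 0.19, 95% interval -0.81 to -0.0006), with an adjusted p of 0.19 (limma), so it did not pass. Its CV within a group was 19.5 to 23.8%, the widest of the 10 genes in each group, and at chr6:83027597-83032254 it shares 1182 exonic bases with *Loxl3* and 1400 with *Aup1*, both on the other strand.

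**Figure D2:**
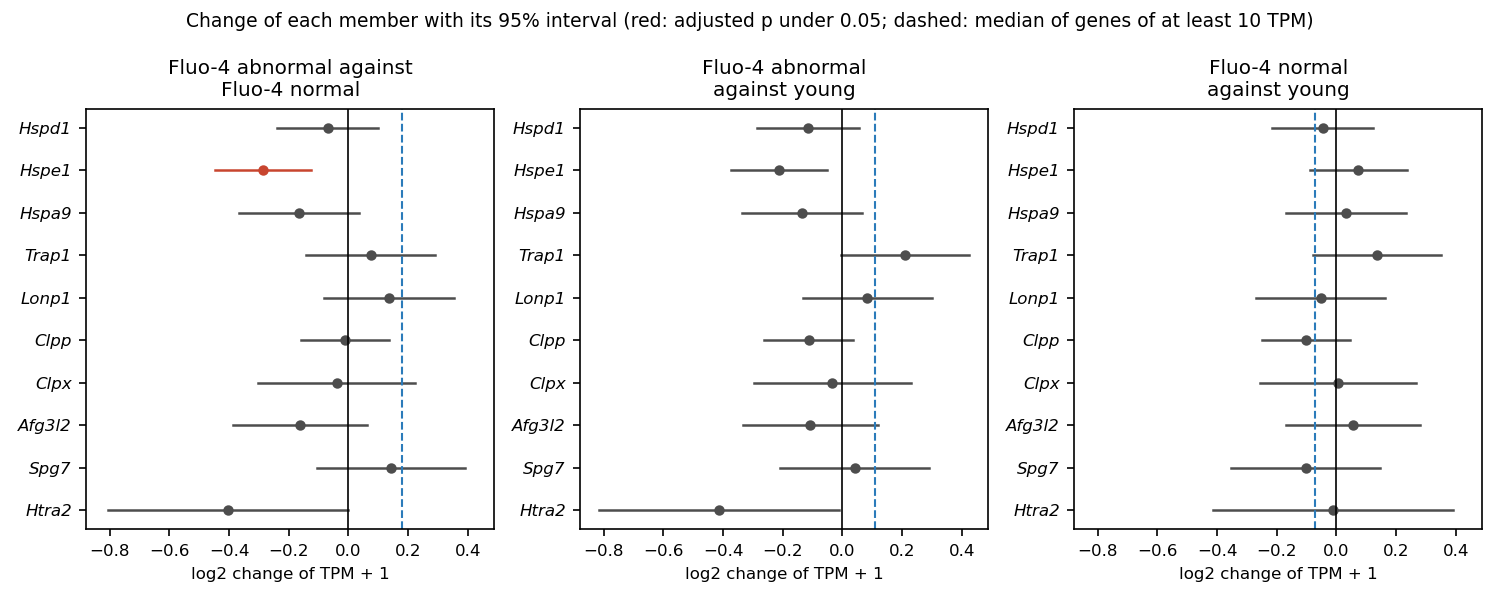
log2 change of TPM + 1 (x axis) of each of the 10 genes in 3 comparisons, with 95% intervals from limma (n = 4 a group). Red marks an adjusted p under 0.05, the solid line is 0 and the dashed line is the median of the 4468 tested genes with a mean of at least 10 TPM. Only *Hspe1* in the Fluo-4 abnormal against the Fluo-4 normal fibers is red, and in that panel all 10 points lie to the left of the dashed line.

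The zero of this scale needs care, because the median gene was not at 0. Among the 4468 tested genes with a mean of at least 10 TPM the median log2 change of the Fluo-4 abnormal against the Fluo-4 normal fibers was 0.18 (0.10 over all 14428 genes), while the median of the 10 genes was -0.05. All 10 lay below the median of the genes of at least 10 TPM, and *Lonp1* and *Spg7* lay above that of all genes. When the samples were rescaled so that most genes agreed between them (trimmed mean of M-values factors computed on TPM), all 10 log2 changes were negative with a median of -0.28. As lower, 4 of the 10 passed, where 3.69% of the 14401 genes then tested and 9.22% of those of at least 10 TPM did. These were *Hspe1* (-0.51, adjusted p = 0.029), *Hspa9* (-0.39, adjusted p = 0.011), *Afg3l2* (-0.38, adjusted p = 0.033) and *Htra2* (-0.61, adjusted p = 0.046), all by limma. Over the 22 alternatives of each, the limma adjusted p ran from 0.011 to 0.98 for *Hspa9*, 0.033 to 0.88 for *Afg3l2* and 0.046 to 0.66 for *Htra2*. Of all genes called, 309 were higher and 531 lower under this scaling, against 1062 higher and 287 lower in TPM as deposited. When the mitochondrially-encoded genes were taken out of the total instead, 1 of the 10 passed and the calls over all genes were 627 higher and 300 lower.

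Against Young, none of the 10 genes passed in the Fluo-4 abnormal fibers, where 8.50% of all genes and 17.1% of those of at least 10 TPM passed. An unadjusted p under 0.05 was reached by 2 of the 10, against 23.0% of all genes. These were *Hspe1*, with a log2 change of -0.21 (SE 0.07, adjusted p = 0.0997, limma) and no overlap of the groups, and *Htra2*, with -0.41 (SE 0.19, adjusted p = 0.20, limma). *Hspe1* was the 1 gene of 10 whose groups did not overlap, where 16.2% of all genes did not. The gene with the highest change was *Trap1* (0.21, 95% interval -0.01 to 0.43, adjusted p = 0.23, limma). The median of the 10 genes was -0.11, against 0.11 for the genes of at least 10 TPM, and 9 of the 10 lay below the latter. With the trimmed mean factors 2 of the 10 passed as lower, *Hspa9* (-0.31, adjusted p = 0.032, limma) and *Clpp* (-0.28, adjusted p = 0.043, limma). Under this scaling 4.71% of all genes and 11.7% of those of at least 10 TPM were called lower. Over the 22 alternatives the limma adjusted p of *Hspa9* ran from 0.032 to 0.85 and that of *Clpp* from 0.043 to 0.58. This comparison shares its Fluo-4 abnormal samples with the one above.

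The Fluo-4 normal fibers were compared with Young to see what differed with age in fibers of ordinary staining. None of the 10 genes passed (limma), and none had an unadjusted p under 0.05, where 1.15% and 12.9% of all genes did. The log2 changes ran from -0.10 (*Clpp* and *Spg7*) to 0.14 (*Trap1*), with a median of 0.00, and the 95% intervals of 9 of the genes lay between -0.35 and 0.35. For *Htra2* the interval was wider, -0.41 to 0.39. No gene of the 10 had groups that did not overlap, where 7.98% of all genes did.

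Each mitochondrial chaperone has relatives in the cytosol and in the endoplasmic reticulum (ER), and ratios within a sample do not change with the scaling. *Hspa9*/*Hspa5* sets the mitochondrial Hsp70 against BiP, the Hsp70 of the ER. It was 0.704, 0.741, 0.656 and 0.526 in the Fluo-4 abnormal, 1.37, 1.34, 1.02 and 1.11 in the Fluo-4 normal and 1.33, 0.947, 1.16 and 1.22 in Young. All 4 Fluo-4 abnormal values were below all 8 others, so that BiP transcript was above that of mortalin in each of them, while in 7 of the 8 others mortalin was above BiP. *Trap1*/*Hsp90b1*, with the Hsp90 of the ER below the line, was 1.83, 1.60, 1.78 and 1.51 in the Fluo-4 abnormal, 2.67, 2.59, 2.27 and 2.37 in the Fluo-4 normal and 2.39, 2.13, 2.16 and 2.34 in Young, again without overlap. Each of these 4 differences gave p = 0.0286, the smallest that an exact two-sided permutation test of 4 against 4 can give, and an adjusted p of 0.11 over the 27 ratio tests, so none passed after adjustment. With 27 tests this smallest p could pass only if most of the tests reached it, so not passing decides nothing about these ratios. On the other strand *Hspa5* shares 2457 exonic bases with *Rabepk* and *Hsp90b1* shares 844 with *Gm66230*, which libraries without strand cannot assign.

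The ratios to cytosolic relatives separated fewer groups. *Hspd1*/*Cct2*, against a subunit of the cytosolic chaperonin, was 1.63 ± 0.185 (SD, n = 4) in the Fluo-4 abnormal and 2.02 ± 0.138 in the Fluo-4 normal fibers without overlap, while Young (1.79 ± 0.134) overlapped both. *Trap1*/*Hsp90ab1*, against a cytosolic Hsp90, was 0.144 ± 0.0143 in the Fluo-4 abnormal, 0.179 ± 0.00242 in the Fluo-4 normal and 0.149 ± 0.00389 in Young, and the Fluo-4 normal fibers were above both other groups. These 3 separations had the same exact permutation p = 0.0286 (adjusted p = 0.11). *Hspa9*/*Hspa8*, against the main cytosolic Hsp70, was 0.196 ± 0.0379, 0.221 ± 0.0442 and 0.216 ± 0.0162 in the same order with overlap. Of the partner ratios, *Clpp*/*Clpx* was 1.16 ± 0.144, 1.13 ± 0.112 and 1.22 ± 0.129 and *Lonp1*/*Clpp* 0.585 ± 0.0485, 0.527 ± 0.0569 and 0.509 ± 0.0457, all with overlap. By replicate number, *Lonp1*/*Clpp* was higher in each Fluo-4 abnormal sample than in its Fluo-4 normal sample, while *Clpp*/*Clpx* differed in both directions.

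**Figure D3:**
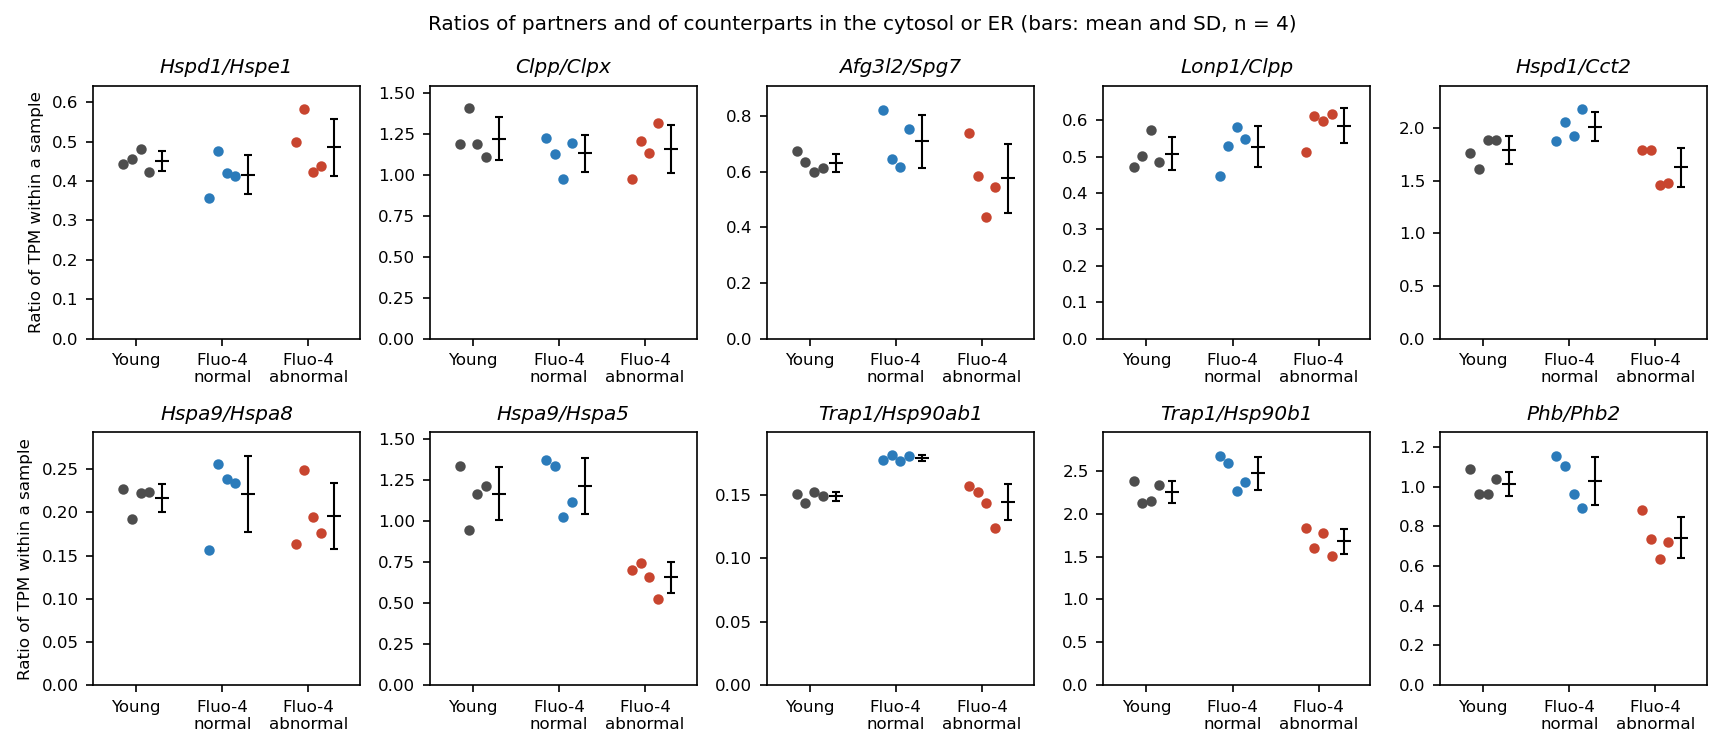
Ratio of the TPM of 2 genes within each sample (linear axis from 0) in the 3 groups. Points are samples in the order of their replicate numbers and the black bars are the mean and SD (n = 4). *Hspa9*/*Hspa5* and *Trap1*/*Hsp90b1* are lower in all 4 Fluo-4 abnormal samples than in the 8 others; the ratio *Phb*/*Phb2* was added after its values were seen.

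Of 13 cytosolic and ER relatives 4 passed as higher in the Fluo-4 abnormal against the Fluo-4 normal fibers, where 7.36% of all genes did. Of the 4468 genes of at least 10 TPM, 722 passed as higher. *Hspa5* was 231 ± 22.2 TPM (SD, n = 4) in the Fluo-4 abnormal, 142 ± 26.3 in the Fluo-4 normal and 143 ± 18.2 in Young, with a log2 change of 0.71 (SE 0.13, adjusted p = 0.0058, limma) between the aged groups. *Hsp90b1* was 42.4 ± 5.03, 27.5 ± 4.71 and 27.3 ± 3.56 TPM, with 0.62 (SE 0.13, adjusted p = 0.013, limma). Both also passed as higher against Young (6.09% of all genes and 517 of the 4468 of at least 10 TPM did), and both passed with the trimmed mean factors. *Hsp90ab1* (0.39, adjusted p = 0.020, limma) and *Cct5* (0.24, adjusted p = 0.024, limma) passed in TPM as deposited but not with those factors (adjusted p = 0.19 and 0.94, limma). Over the 22 alternatives of each, the limma adjusted p ran from 0.0020 to 0.12 for *Hspa5*, 0.0040 to 0.23 for *Hsp90b1*, 0.0027 to 0.19 for *Hsp90ab1* and 0.014 to 0.94 for *Cct5*. All 8 chaperonin subunits had positive log2 changes between the aged groups in TPM as deposited, as did 3407 of the 4468 genes of at least 10 TPM, and 3 of the 8 did with the factors.

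Mitochondria hold many more quality control proteins, and 27 further genes of co-chaperones, proteases and scaffolds were read from the same fit. Of the 27, 2 passed in the Fluo-4 abnormal against the Fluo-4 normal fibers (limma), *Phb* and *Hscb*, both as lower. In that comparison 1.99% of all genes and 4.79% of those of at least 10 TPM were called lower. The median log2 change of the 27 was -0.02, and 26 of them lay below the median of the genes of at least 10 TPM, as did 61.8% of all genes tested. Against Young the same 2 genes passed as lower, where 2.41% of all genes and 5.57% of those of at least 10 TPM did. Between the Fluo-4 normal fibers and Young none of the 27 passed.

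*Phb* (prohibitin 1, current symbol *Phb1*), which forms ring scaffolds in the inner membrane around the m-AAA protease, had 85.7, 78.9, 68.3 and 73.6 TPM in the Fluo-4 abnormal fibers. It had 111, 119, 104 and 95.1 TPM in the Fluo-4 normal and 108, 111, 104 and 107 in Young, so all 4 Fluo-4 abnormal samples were below the 8 others. The log2 change was -0.48 against the Fluo-4 normal fibers (SE 0.08, adjusted p = 0.0041, limma) and -0.49 against Young (SE 0.08, adjusted p = 0.0032, limma). The first call was lost with the *Myh4* share as a covariate (-0.42, adjusted p = 0.055, limma) and with that share joined to the replicate block. Over the 22 alternatives the limma adjusted p ran from 0.00066 to 0.15. Its partner in the ring, *Phb2*, had 97.2 to 107 TPM in the Fluo-4 abnormal, 95.9 to 108 in the Fluo-4 normal and 98.9 to 115 in Young, with a log2 change of -0.02 (95% interval -0.16 to 0.13, adjusted p = 0.91, limma) in TPM as deposited. With the trimmed mean factors *Phb2* was at -0.24 and passed as lower (adjusted p = 0.039, limma), the lowest over its 22 alternatives, and the highest was 1. *Phb*/*Phb2* was 0.744 ± 0.101 (SD, n = 4) in the Fluo-4 abnormal, 1.03 ± 0.121 in the Fluo-4 normal and 1.02 ± 0.0617 in Young, without overlap; it was singled out after its values were seen and is not tested.

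A copy of *Phb* on chromosome 15, listed as *Gm7666* (99.8% identity over 1007 bases), was itself at 66.8 to 102 TPM, so reads can be split between these entries. *Gm7666* was at 66.8 to 78.4 TPM in the Fluo-4 abnormal fibers, 84.3 to 102 in the Fluo-4 normal and 92.1 to 99.9 in Young. The sum of both entries was 147 ± 12.1 TPM (SD, n = 4), 204 ± 18.0 and 204 ± 1.05 in the same order, and the Fluo-4 abnormal samples (137 to 164) lay below all others (179 to 222). The level of *Phb* relative to *Phb2* therefore depends on how the copy is counted, while its position in the Fluo-4 abnormal samples was below the others either way.

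*Hscb*, a co-chaperone of Hspa9 in iron-sulfur cluster assembly, had 9.41, 9.62, 9.47 and 9.88 TPM in the Fluo-4 abnormal, 13.9, 12.8, 11.8 and 12.3 in the Fluo-4 normal and 13.8, 15.4, 16.1 and 18.0 in Young. The log2 change was -0.37 against the Fluo-4 normal fibers (SE 0.10, adjusted p = 0.032, limma) and -0.66 against Young (SE 0.10, adjusted p = 0.0014, limma). The first call was lost without any of Fluo-4 normal replicates 1, 2 and 4 or of the 4 Fluo-4 abnormal replicates, and with the *Myh4* share, alone or joined to the replicate block, with a limma adjusted p from 0.015 to 0.31 over the 22 alternatives. The next genes by p were *Pmpcb* (-0.29, adjusted p = 0.059), *Pmpca* (0.17, adjusted p = 0.24), *Pitrm1* (0.30, adjusted p = 0.25) and *Parl* (-0.18, adjusted p = 0.29), all by limma. *Pmpcb* and *Pmpca* encode the catalytic and the other subunit of the peptidase that removes import signals, and their changes had opposite signs in TPM as deposited but were both negative with the trimmed mean factors. *Pmpcb* passed as lower in 5 of 22 alternatives, the factors and the replicate block among them, with a limma adjusted p from 0.0052 to 0.80.

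**Figure D4:**
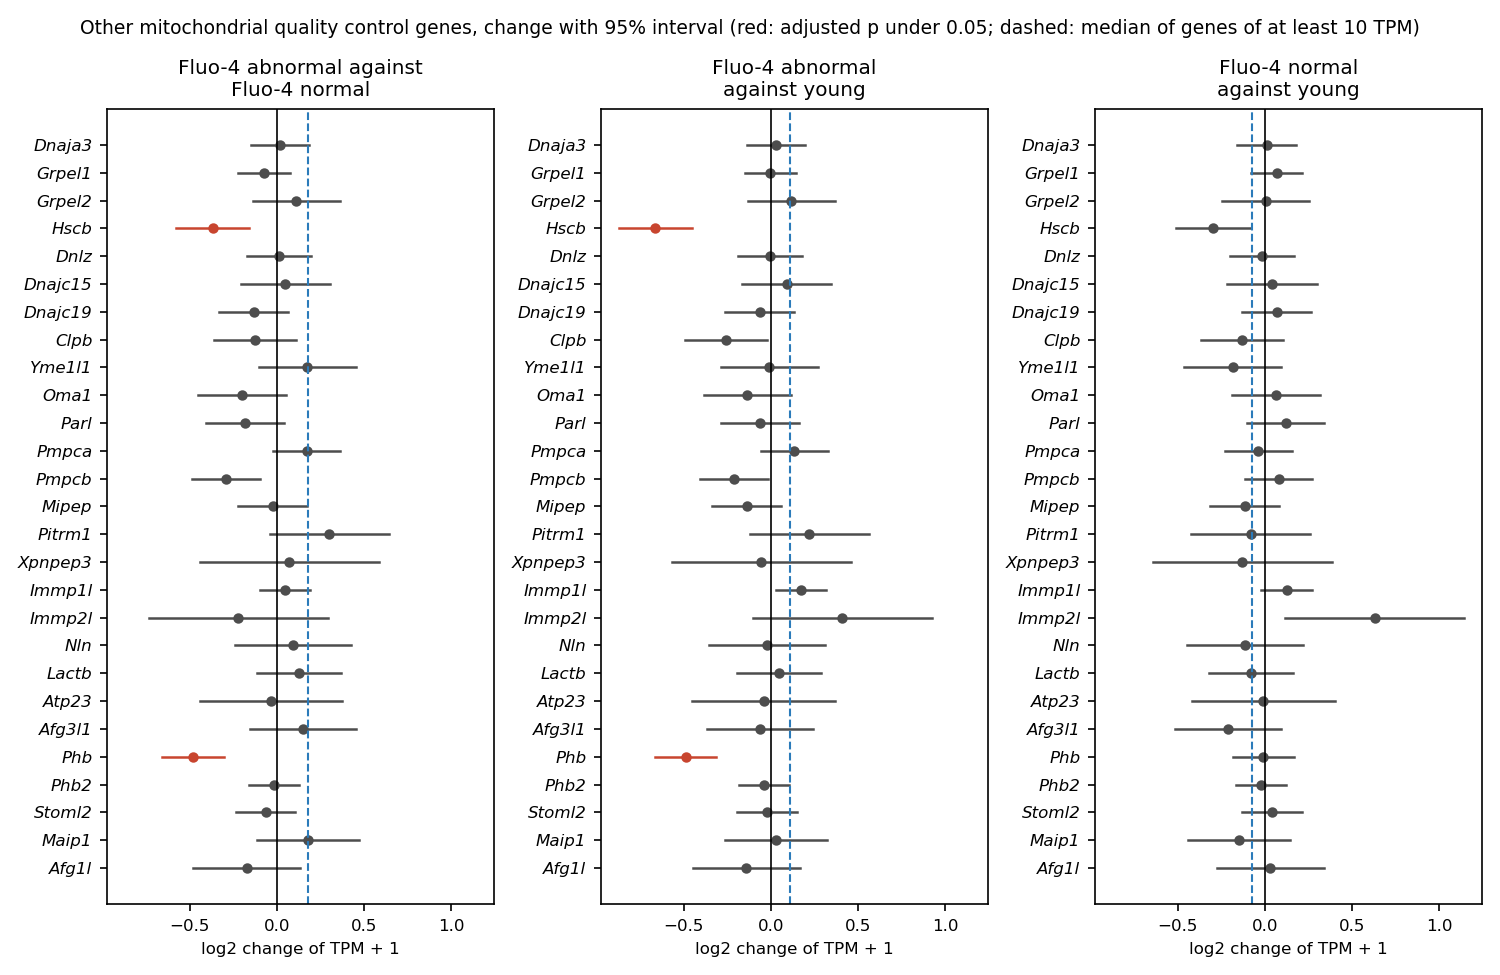
log2 change of TPM + 1 (x axis) of 27 further mitochondrial quality control genes in 3 comparisons, with 95% intervals from limma (n = 4 a group). Red marks an adjusted p under 0.05, the solid line is 0 and the dashed line is the median of the 4468 tested genes with a mean of at least 10 TPM. *Phb* and *Hscb* are red in both comparisons of the Fluo-4 abnormal fibers and no gene is red in the Fluo-4 normal fibers against Young.

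A further 6 genes that regulate the mitochondrial unfolded protein response or related stress responses were read from the same fit. None of *Atf4*, *Atf5*, *Ddit3*, *Hsf1*, *Cebpb* and *Ubl5* passed in any of the 3 comparisons in the fit without the replicate block (limma), although 1 of 6 had an unadjusted p under 0.05 between the aged groups (*Hsf1*; 25.6% of all genes did) and 2 of 6 against Young (*Ddit3* and *Cebpb*; 23.0% did). *Hsf1*, which encodes the factor that binds the heat shock element, was 26.8 ± 4.55 TPM (SD, n = 4) in the Fluo-4 abnormal, 20.7 ± 2.79 in the Fluo-4 normal and 24.8 ± 3.82 in Young, with a log2 change of 0.36 between the aged groups (SE 0.14, adjusted p = 0.12, limma). With the replicate number as a block it passed as higher (adjusted p = 0.048, limma), which was the lowest over its 22 alternatives, and the highest was 0.77. *Atf5*, which encodes a transcription factor of the mitochondrial response, was below 1 TPM in all samples (0.203 to 0.865 TPM). *Ddit3*, which encodes CHOP, was 107 ± 32.3, 86.6 ± 30.7 and 68.2 ± 9.99 TPM in the same order, with overlap of all groups. Against Young it was called in 3 of 22 alternatives, with a limma adjusted p from 0.016 to 0.41.

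The 10 genes did not vary as 1 block across the 12 samples. By Pearson's r of log2(TPM + 1) over the 12 samples, which share group, library and scaling, the most alike pairs were *Hspd1* with *Htra2* (0.88), *Lonp1* with *Spg7* (0.85), *Hspd1* with *Hspa9* (0.81) and *Hspa9* with *Htra2* (0.81). *Hspd1* and *Hspe1*, which share the promoter shown above and act together, had r = 0.19. *Hspe1* ran against *Lonp1* (-0.73), *Trap1* (-0.62) and *Spg7* (-0.57). In Fluo-4 normal replicate 1, with the highest trimmed mean factor (1.24), *Hspe1* was at its highest and *Lonp1* and *Spg7* at their lowest. In Fluo-4 abnormal replicate 2, with the lowest factor (0.85), *Hspe1* was at its lowest and *Lonp1* and *Trap1* at their highest. The part of scaling in these correlations was not tested. Among 4468 genes with a mean of at least 10 TPM, the pattern most like *Hspe1* was that of *Mrpl42* (0.90) and *Ndufa1* (0.89), most like *Hspa9* that of *Suclg2* (0.93) and *Ndufs1* (0.91), and most like *Afg3l2* that of *Ptcd3* (0.89) and *Oma1* (0.83). The nearest to *Trap1* were *Tns1* (0.95) and *Acacb* (0.93), to *Lonp1* *Ankrd28* and *Med24* (both 0.94), and to *Spg7* *Ddx3x* and *Smad4* (both 0.95). For *Clpp* they were *Stx7* and *Apopt1* (both 0.84), for *Clpx* *Dand5* (0.81) and *Pdcd2l* (0.76), for *Hspd1* *Rsph3b* (0.88) and *Dlst* (0.82), and for *Htra2* *Hspd1* (0.88) and *Immt* (0.86).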

How the data were processed

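RNA of isolated myofibers (10 ng per library) was made into full-length SMART-Seq version 4 libraries, which do not mark strand. The authors aligned reads to GRCm39/mm39 with DRAGEN 4.3 and deposited TPM for 55487 entries per sample; the annotation release was not given in the sources used here. Symbols on several lines (114) were summed. Protein-coding and mitochondrially-encoded genes reaching a mean of 0.02 TPM in a group (14428 genes) were tested on log2(TPM + 1) with limma 3.58.1 (R 4.3.3, trend) in one fit of the 12 samples, with Benjamini-Hochberg adjustment and a threshold of 0.05; the fit was first tested on simulated data. Without counts, no count model was used. Ratios were tested by exact permutation over samples, without pairing by replicate number. Genes named beyond the 10 members follow lists and a rule on smallest p; members and lists were chosen with earlier results of these data known. Alternatives covered scaling, pseudocount, filter, gene set, block, *Myh4* share, samples fitted and each sample left out. Copies were sought with BLAST 2.17.0 (at least 95% identity over 50% of the transcript); part of this search is not reported here. The Fluo-4 abnormal and Fluo-4 normal samples of the same replicate number deviated together (r = 0.51, 0.42, 0.46 and 0.33 over 4468 genes, against -0.43 to 0.28 for other numbers). These numbers were therefore used as a block, although the labels do not say what a number marks. Between the aged groups the block covered the aged samples only. In both comparisons with Young it also joined Young samples to aged samples of the same number. Between these, r for the same number was 0.02 to 0.24 (Fluo-4 abnormal) and -0.12 to 0.24 (Fluo-4 normal). These values were mostly above 0 and lay within the range for other numbers (-0.25 to 0.28 and -0.23 to 0.32).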

Additional observations from a re-analysis of the deposited data

Results flagged for a closer look

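In 4 of 57 groups of 4 values, over the 10 genes and the 9 ratios in 3 groups, 1 sample lay far from the other 3 (by Dixon's ratio of gap to range at its 95% level, which chance passes in about 1 of 20 groups). *Hspe1* was 146 TPM in Fluo-4 abnormal replicate 2. *Lonp1* was 21.7 TPM in Fluo-4 normal replicate 1. *Lonp1*/*Clpp* was 0.513 in Fluo-4 abnormal replicate 1, and *Hspa9*/*Hspa8* was 0.192 in Young replicate 2.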

How the results depend on the processing

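Between the aged groups the log2 change of *Hspe1* was negative under each of its 22 alternatives, and called under 15. Of the 10 genes, 4 were called with the trimmed mean factors, 0 with no filter, with only the 2 groups compared, with the *Myh4* share, alone or joined to the replicate block, and 0 to 1 without 1 sample; against Young 2 were called with the factors. The replicate block alone changed no call among the 10 genes, but raised the calls over all genes from 1349 to 2281, and from 166 to 320 for the Fluo-4 normal fibers against Young; with the *Myh4* share added the count in the first was 22. Outside the 10, the block alone added calls for *Hsf1*, *Pmpcb* and *Cct4* between the aged groups and for *Ddit3* and *Hsp90ab1* in Fluo-4 abnormal against Young. Against Young the block joined Young to aged samples by number, where same-numbered samples deviated together less than the aged pairs did. The causes were not tested.

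Calls over all genes between the aged groups were 840 with the factors, 850 with no filter, 566 with only these 2 groups and 820 with the *Myh4* share (665 to 1456 without 1 sample, lowest without Fluo-4 abnormal replicate 2). Against Young the Fluo-4 abnormal fibers gave 1227 calls, 750 with no filter and 604 to 1676 without 1 sample; the Fluo-4 normal fibers gave 71 with no filter, 266 with a filter of 5 TPM, 69 with only these 2 groups and 55 to 207 without 1 sample. Of the 27 further genes, 5 were called with the factors in both comparisons of the Fluo-4 abnormal fibers, and between the aged groups 0 with the *Myh4* share, with or without the block, and 1 to 2 without 1 sample. The separated ratios numbered 4 to 6, 2 to 4 and 1 to 3 without 1 sample, against 4, 2 and 1.

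Signs of uncalled log2 changes turned as follows. With the factors, between the aged groups, *Trap1* was -0.15, *Lonp1* -0.081 and *Spg7* -0.078; for Fluo-4 abnormal against Young, *Lonp1* was -0.083, *Spg7* -0.13 and *Cct5* -0.14; for Fluo-4 normal against Young, *Hspd1* was 0.0065, *Htra2* 0.038, *Phb* 0.045 and *Hspa5* 0.027. Without mitochondrially-encoded genes in the total, in the last comparison, *Htra2* was 0.018, *Phb* 0.022 and *Hspa5* 0.0047. With the *Myh4* share, between the aged groups, *Hspd1* was 0.042, *Hspa9* 0.035, *Clpp* 0.036 and *Clpx* 0.16, against Young *Clpx* was 0.066, and for Fluo-4 normal against Young *Hspa9* was -0.066, *Clpx* -0.089 and *Hsp90b1* -0.081. With block and share together the values were 0.068 for *Hspd1*, 0.052 for *Clpp*, 0.35 and 0.12 for *Clpx*, and -0.057 for *Hspa9*, -0.14 for *Clpx* and -0.014 for *Hsp90b1* in the last comparison.

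Without 1 sample the log2 change between the aged groups ran from -0.013 to 0.14 for *Trap1*, -0.047 to 0.023 for *Clpp* and -0.16 to 0.057 for *Clpx*; for Fluo-4 abnormal against Young from -0.15 to 0.062 for *Clpx* and -0.018 to 0.090 for *Spg7*; and for Fluo-4 normal against Young from -0.024 to 0.10 for *Hspa9*, -0.10 to 0.041 for *Lonp1*, -0.056 to 0.066 for *Clpx*, -0.16 to 0.013 for *Spg7*, -0.13 to 0.13 for *Htra2*, -0.060 to 0.048 for *Phb*, -0.11 to 0.11 for *Hspa5* and -0.071 to 0.13 for *Hsp90b1*. TPM gives no read depth, so no counting error could be set.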
